A study of Mus musculus with 25 samples.

Results

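The enzymes that end a cyclic nucleotide signal and the proteins that hold its kinase in place were compared between αTC1, a mouse line of glucagon-producing alpha cells, and βTC6, a mouse line of insulin-producing beta cells. Members were chosen by a rule on gene names, with earlier results of these data known. They were the phosphodiesterase genes (Pde followed by a number and a letter) and the protein kinase A (PKA) anchoring protein genes (Akap). Rapgef3 and Rapgef4, which encode the cAMP sensors Epac1 and Epac2, and the transcription factor genes Creb1 and Crem were also included. The rule found 43 of 24439 entries in the RNA-seq tables, which carry 42 gene symbols because Pde4d has 2 identifiers, and 214 of 65053 ATAC-seq peaks whose nearest annotated gene was a member. Every one of the 42 symbols had at least 1 peak. Phosphodiesterases accounted for 23 entries and 130 peaks, anchoring proteins for 16 entries and 54 peaks, the Epac genes for 2 entries and 11 peaks, and Creb1 and Crem for 2 entries and 19 peaks.

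RNA-seq was performed on 3 αTC1 and 3 βTC6 libraries. ATAC-seq, which cuts accessible chromatin with a transposase, was performed on 5 libraries of each line and on 9 mixtures of both lines made in steps of 10% of the cells, with 1 library for each mixture. αTC1 (alpha TC1 clone 6) is a cloned line and βTC6 (Beta-TC-6) an insulinoma line, both bought from a cell bank, and each was grown untreated in its own medium, with less glucose and less serum for αTC1, so line and medium cannot be told apart. The sources used here do not say whether replicates were separate cultures, and p-values therefore measure the spread between these libraries, which may be technical.

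Adenylyl cyclases make cyclic AMP (cAMP), which acts through PKA and Epac, and phosphodiesterases end the signal by hydrolysis. In beta cells cAMP amplifies glucose-stimulated insulin secretion, and in alpha cells it promotes glucagon secretion. The phosphodiesterase families differ in substrate. PDE4, PDE7 and PDE8 hydrolyse cAMP, PDE5, PDE6 and PDE9 hydrolyse cGMP, and PDE1, PDE2, PDE3, PDE10 and PDE11 accept both. Anchoring proteins bind the regulatory subunits of PKA and often a phosphodiesterase as well, which keeps the kinase at a chosen membrane or organelle. CREB and CREM are the nuclear factors that PKA phosphorylates on genes with a cAMP response element.

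RNA-seq libraries held 21795367 to 25876765 expected counts over genes, and ATAC-seq libraries held 4397851 to 10374903 reads in peaks. The lines carried their own defining genes. Gcg was at 12113 to 14406 FPKM (fragments scaled to transcript length and library size) in αTC1 and 172 to 267 in βTC6, and Ins2 was at 23541 to 35748 FPKM in βTC6 and 0.19 to 0.64 in αTC1. The 5 alpha markers summed to 12350 to 14700 FPKM in αTC1 against 194 to 283 in βTC6, and the 6 beta markers to 13.6 to 14.9 against 25380 to 37990. Of the markers of other islet cells, Sst stood at 207 to 325 FPKM and Ppy at 3.70 to 50.8 in βTC6, against 0 and at most 0.1 in αTC1. Hhex, the other delta cell marker, was at most 0.02 in βTC6 and 0.06 to 0.13 in αTC1, and Ghrl, of epsilon cells, stayed below 1 FPKM in both lines. Their part in the results was not tested. Markers of stromal and endothelial cells stayed below 1 FPKM in all 6 libraries, and those of acinar, ductal, epsilon and immune cells summed to at most 13.3.

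The catalytic phosphodiesterase transcripts were more abundant in αTC1 than in βTC6. Their FPKM values, summed over 22 entries and without Pde6d, whose product is a carrier of prenylated proteins and not an enzyme, came to 331, 331 and 324 in αTC1 and to 137, 132 and 109 in βTC6, so the groups did not overlap. Genes for enzymes that accept both nucleotides made up 68.3% to 68.4% of that sum in αTC1 and 43.9% to 48.2% in βTC6. The cAMP-specific families PDE4, PDE7 and PDE8 made up 31.0% to 31.1% in αTC1 and 48.1% to 51.8% in βTC6. The cGMP-specific families took the smallest share in both lines, at 0.547% to 0.663% and 3.75% to 5.27%. These sums describe the libraries and were not tested.

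**Figure D1:**
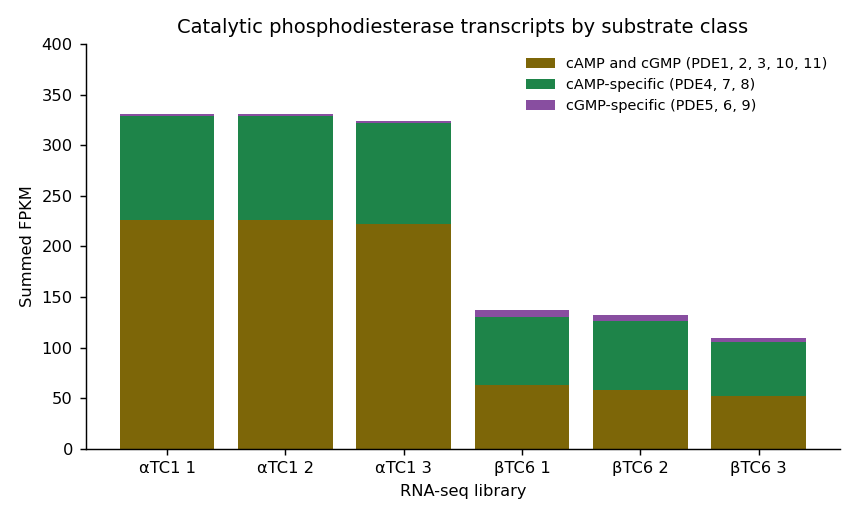
Summed FPKM of the catalytic phosphodiesterase genes (y axis) in each of the 6 RNA-seq libraries (x axis), stacked by substrate class, with Pde6d left out. The αTC1 bars reach 324 to 331 and the βTC6 bars 109 to 137, and most of the gap lies in the genes for enzymes that accept both cAMP and cGMP.

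Of the 43 entries, 32 reached 1 FPKM in every replicate of at least 1 line and were tested across all 12195 such genes with the quasi-likelihood test of edgeR. All fold changes are given as βTC6 over αTC1, and a gene was called when its false discovery rate (FDR) was below 5% and its log2 fold change (log2 FC) exceeded 2 in size. In βTC6, 6 members were called higher (Akap12, Pde4c, Pde1b, Pde5a, Pde9a and Pde2a), where 10.2% of all tested genes were, and 5 were called lower (Pde1a, Pde3a, Pde6c, Akap3 and Pde1c), where 4.08% were. Of these 11, only Pde1c passed the expression filter in both lines. The other 10 passed through the line where they were high, which selects for a difference, and their number is no evidence about the members. By FDR alone 11 members rose and 20 fell, where 38.7% and 36% of all tested genes did, and Akap8l alone did not pass. Of the 11 and 20, 7 and 4 had passed the filter in 1 line only. Among the 21 entries that passed it in both lines 4 rose and 16 fell, where 34.2% and 37.2% of all such genes did. With library sizes from the spike-in RNAs, 7 rose and 10 fell, and the same 11 members were called. The 14 that then missed the FDR were Akap1, Akap6, Akap7, Akap8, Akap9, Akap10, Akap13, Akap17b, Creb1, Rapgef4, Pde4b, Pde6d, Pde7a and the shorter Pde4d entry, and each of them kept its sign. The median log2 FC was -0.67 over the 32 entries and 0.01 over all tested genes.

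**Figure D2:**
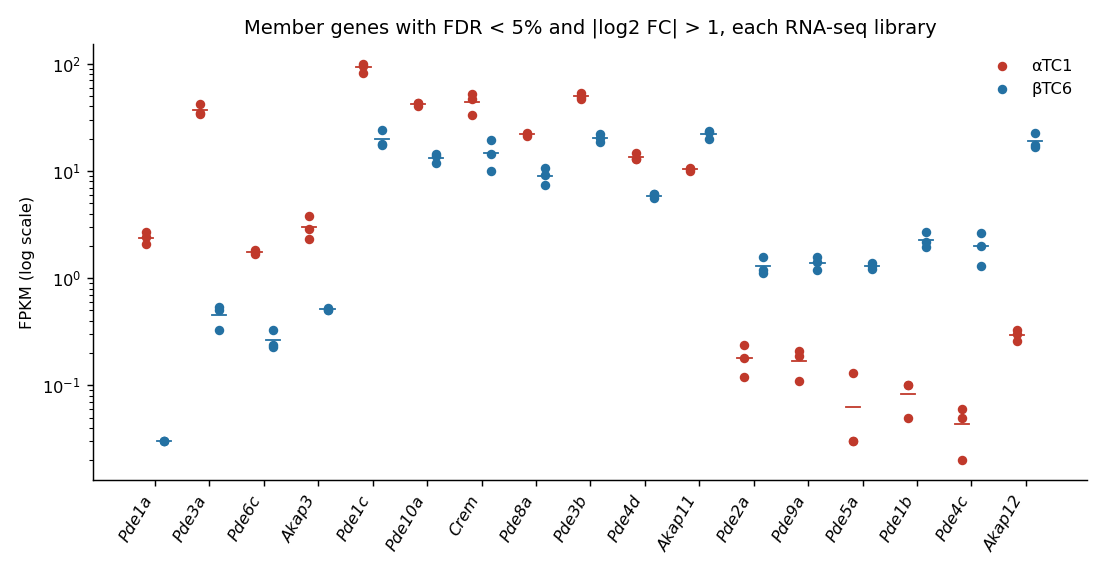
FPKM on a log scale (y axis) of the 17 member genes with FDR below 5% and a log2 fold change over 1 in size, in 3 αTC1 and 3 βTC6 libraries. Points are libraries, some of which coincide, and bars are group means. From Pde1a to Pde4d, at left, αTC1 points lie above βTC6 points, and from Akap11 to Akap12, at right, they lie below.

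The PDE1 family, which calcium and calmodulin stimulate, was split between the lines. Pde1c was the most abundant phosphodiesterase transcript of αTC1, at 99.9, 96.2 and 82.7 FPKM in its 3 libraries, and stood at 24.2, 17.5 and 17.8 FPKM in βTC6. It fell by 2.19 on the log2 scale (SE 0.15, adjusted p = 1.29e-06), and the lowest αTC1 library lay far above the highest βTC6 library.

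Pde1a, a further member of the family, stood at 2.67, 2.08 and 2.43 FPKM in αTC1 and was almost unread in βTC6, with 2, 1 and 2 counts. Summed over libraries, 486 counts in αTC1 and 5 in βTC6 gave a ratio of 104 after scaling to library totals (95% exact interval 44.3 to 322, counting error only). The fitted log2 FC was -6.54 (SE 0.30, adjusted p = 1.53e-07) and depends on the prior count at such low counts. Pde1b went the other way. It was read at 0.05, 0.10 and 0.10 FPKM in αTC1 and at 1.96, 2.70 and 2.16 in βTC6 (log2 FC 4.93, SE 0.32, adjusted p = 1.13e-06).

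The PDE3 enzymes, which cGMP inhibits, were lower in βTC6 to different degrees. Pde3a was read at 33.8, 34.9 and 42.5 FPKM in αTC1 and at 0.54, 0.33 and 0.50 in βTC6, with a log2 FC of -6.39 (SE 0.18, adjusted p = 9.19e-09). Pde3b, the isoform known for lowering cAMP downstream of insulin, remained expressed in both lines, at 46.5, 49.5 and 53.2 FPKM in αTC1 and 20.2, 22.2 and 18.8 in βTC6 (log2 FC -1.13, SE 0.10, adjusted p = 7.03e-06). As shares of the summed phosphodiesterase FPKM, Pde3a went from 10.2% to 13.1% in αTC1 to 0.249% to 0.457% in βTC6, while Pde3b held 14.0% to 16.4% and 14.7% to 17.2%, which overlap.

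Pde2a, whose enzyme cGMP stimulates, and Pde10a, a gene known for its high level in the striatum, moved in opposite directions. Pde2a was read at 0.12, 0.18 and 0.24 FPKM in αTC1 and at 1.19, 1.58 and 1.12 in βTC6 (log2 FC 3.09, SE 0.29, adjusted p = 1.10e-05). Pde10a was read at 43.3, 43.1 and 40.5 FPKM in αTC1 and at 14.4, 13.7 and 11.8 in βTC6 (log2 FC -1.52, SE 0.11, adjusted p = 1.71e-06). In neither gene did the groups overlap.

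Among the cAMP-specific genes, Pde4b, Pde4d, Pde7a and Pde8a were lower in βTC6 and Pde4c was higher. Pde4b was the most abundant catalytic phosphodiesterase transcript of βTC6, at 30.6, 34.4 and 20.9 FPKM, and its level in αTC1, at 41.6, 43.5 and 44.0, was not much higher (log2 FC -0.53, SE 0.16, adjusted p = 0.0137). Pde8a fell by 1.24 on the log2 scale (SE 0.11, adjusted p = 9.98e-06), from 22.8, 22.3 and 21.3 FPKM in αTC1 to 10.7, 9.08 and 7.33 in βTC6. The longer Pde4d entry fell by 1.07 (SE 0.09, adjusted p = 7.57e-06), from 14.8, 13.1 and 13.0 FPKM to 6.04, 6.04 and 5.58. The other Pde4d entry covers 110744317 to 110746171 on chromosome 13, just past the end of the longer one at 110743669, and gave a log2 FC of -0.89 (SE 0.17, adjusted p = 0.0012). The division of reads between them is uncertain.

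Pde4c was barely read in αTC1, at 0.05, 0.06 and 0.02 FPKM, and reached 2.01, 1.31 and 2.64 in βTC6 (log2 FC 5.53, SE 0.42, adjusted p = 2.97e-06). Pde7a fell by 0.78 (SE 0.08, adjusted p = 1.44e-05), from 14.9 to 17 FPKM in αTC1 to 10.5 to 10.9 in βTC6. Pde4a, Pde7b and Pde8b missed the expression filter. Pde4a was read at 0.07 to 0.23 FPKM in αTC1 and 0.74 to 1.0 in βTC6, Pde8b at 0.36 to 0.48 and 0.94 to 1.93, and Pde7b at 0.76 to 1.11 and 0.88 to 1.47, with overlap only in Pde7b.

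The cGMP-specific genes were low in both lines, and their identities differed. Pde5a, the target of sildenafil, was at 0.03, 0.03 and 0.13 FPKM in αTC1 and at 1.39, 1.22 and 1.29 in βTC6 (log2 FC 4.34, SE 0.40, adjusted p = 1.07e-05), and without αTC1 replicate 3, the highest of its line, the log2 FC was 5.37. Pde9a, a high-affinity cGMP enzyme, was at 0.21, 0.11 and 0.19 FPKM in αTC1 and 1.41, 1.57 and 1.2 in βTC6 (log2 FC 4.06, SE 0.35, adjusted p = 7.03e-06). In αTC1 the leading cGMP-specific transcript was instead Pde6c, which encodes the cone photoreceptor enzyme, at 1.75, 1.67 and 1.83 FPKM against 0.33, 0.23 and 0.24 in βTC6 (log2 FC -2.67, SE 0.22, adjusted p = 4.82e-06).

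The rod photoreceptor genes Pde6a and Pde6b showed the reverse but fell short of the filter, since 1 or more βTC6 libraries lay below 1 FPKM. Pde6a was read at 3.07, 2.09 and 0.92 FPKM in βTC6, where 689 counts stood against 1 in αTC1, a ratio of 643 with a 95% exact interval of 115 to 25445 for counting error. Pde6b was read at 1.03, 0.52 and 0.45 FPKM in βTC6. Its 141 counts there stood against 0 in αTC1, which makes it at least 43.9-fold higher when 3 counts over the group are taken as the floor. Pde11a, which accepts both nucleotides, had 55 counts in βTC6 and 4 in αTC1 and never exceeded 0.45 FPKM. Its groups overlapped, since βTC6 replicate 2 and αTC1 replicate 3 were both at 0.05 FPKM. Pde6d fell by 0.43 (SE 0.07, adjusted p = 3.52e-04), from 70.5 to 76.2 FPKM in αTC1 to 51.8 to 53.2 in βTC6. It lies on chromosome 1, where the median RNA log2 FC was -0.67, and stood at 0.23 relative to that median. The part of the chromosome was not tested.

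The summed level of the anchoring proteins overlapped between the lines. It was 136 to 148 in αTC1 and 141 to 156 in βTC6, and of 12 tested members 6 rose, 5 fell and 1 did not pass. Without Akap12, Akap6 and Akap3, which passed the filter in 1 line only, 4 of 9 rose and 4 fell, where 34.2% and 37.2% of all genes that passed it in both lines did. Akap12, which encodes gravin, a scaffold for PKA and protein kinase C at the plasma membrane, had the largest fold change among them. It was at 0.30, 0.26 and 0.33 FPKM in αTC1 and at 16.6, 17.3 and 22.8 in βTC6 (log2 FC 6.05, SE 0.17, adjusted p = 9.34e-09). Its share of the summed anchoring protein FPKM was 0.191% to 0.223% in αTC1 and 11% to 14.6% in βTC6.

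Akap11, whose product AKAP220 holds PKA together with phosphatases, was at 10.6, 10.4 and 10.0 FPKM in αTC1 and 23.7, 23.1 and 19.9 in βTC6 (log2 FC 1.17, SE 0.09, adjusted p = 2.75e-06). It lies on chromosome 14, where the median log2 FC over 415 tested genes was 1.2, so that Akap11 stood at -0.03 relative to its chromosome. The part of the chromosome in this difference was not tested. Akap3, known from the fibrous sheath of the sperm tail, was at 2.30, 2.85 and 3.83 FPKM in αTC1 and 0.53, 0.51 and 0.50 in βTC6 (log2 FC -2.49, SE 0.23, adjusted p = 1.08e-05).

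Akap8, Akap1, Akap10, Akap9 and Akap6 had smaller differences than Akap12, Akap11 and Akap3. Akap8, whose product AKAP95 is nuclear, had the highest mean of the family in αTC1, although Akap8l exceeded it in αTC1 replicate 3. It stood at 34.9 to 38.8 FPKM in αTC1 and fell to 20.8 to 23.7 in βTC6 (log2 FC -0.71, SE 0.08, adjusted p = 4.07e-05). Akap1, which brings PKA to the outer mitochondrial membrane, fell from 20.2 to 22.9 FPKM to 11.1 to 12.5 (log2 FC -0.81, SE 0.09, adjusted p = 2.40e-05). Akap10 and Akap9, the latter a scaffold of the Golgi and centrosome, were higher in βTC6, with log2 FC of 0.80 and 0.26. Akap9 no longer passed, at 0.25 and 0.19, without αTC1 replicate 2 or βTC6 replicate 1. Relative to the RNA medians of chromosomes 11 and 5, at 0.48 and 0.27, Akap10 and Akap9 stood at 0.31 and -0.01. The part of the chromosomes was not tested. Akap6, a scaffold of the nuclear envelope in muscle, was low in both lines, at 0.60 to 0.86 FPKM in αTC1 and 1.06 to 1.48 in βTC6 (log2 FC 0.91, SE 0.21, adjusted p = 0.00341).

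Akap7 and Akap17b were lower in βTC6, with log2 FC of -0.72 and -0.48, and Akap13 was higher with a log2 FC of 0.34 (adjusted p = 0.0322). That value fell to between 0.21 and 0.31 and missed the FDR without αTC1 replicate 1 or 2 or βTC6 replicate 1. Akap8l, the neighbour of Akap8, was at 26.5 to 36.6 FPKM in αTC1 and 27.1 to 32.9 in βTC6 and gave a log2 FC of 0.03 (SE 0.13, adjusted p = 0.824), with a sign that turned under spike-in scaling. Akap5, which binds PKA and calcineurin, reached only 0.37 to 0.51 FPKM in αTC1 and 0.65 to 0.85 in βTC6. Akap2 and Akap14 stayed at or below 0.21 FPKM, and Akap4, a sperm tail gene, had 0 counts in all 6 libraries.

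The sensor and both nuclear factors that passed the filter were lower in βTC6. Rapgef4, whose product Epac2 acts in insulin granule exocytosis, fell by 0.63 on the log2 scale (SE 0.10, adjusted p = 3.12e-04), from 44.6, 43.8 and 43.0 FPKM in αTC1 to 30.5, 22.6 and 29.1 in βTC6. Rapgef3 was near the limit of reading, at 0.71 to 0.97 FPKM in αTC1 and 0.13 to 0.51 in βTC6. Creb1 fell by 0.75 (SE 0.08, adjusted p = 2.10e-05), from 19.8 to 22.7 FPKM to 8.23 to 11.3. It lies on chromosome 1, where the median over 696 tested genes was -0.67, which leaves -0.09 relative to the chromosome, and the part of the chromosome was not tested.

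Crem, which also encodes the repressor ICER from an internal cAMP-inducible promoter, was at 47.2, 52.0 and 33.0 FPKM in αTC1 and 14.4, 19.4 and 10.1 in βTC6 (log2 FC -1.35, SE 0.19, adjusted p = 1.72e-04). The gene-level value does not tell its isoforms apart. Immediate early genes that CREB can drive varied between libraries of the same line, with Fos at 26.6, 22.8 and 8.37 FPKM in αTC1 and 104, 18.3 and 236 in βTC6. Their part in the Crem values was not tested.

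The other genes of the pathway were read from fixed lists, whose counts stand beside the 38.7% of all tested genes that rose and the 36% that fell by FDR, and the 10.2% and 4.08% that were called. As with the members, passing the expression filter through βTC6 alone selects for a difference, and the genes that did so were 4 of the 5 called genes for cyclases and G proteins, 1 of the 3 for PKA, 1 of the 4 CREB targets called higher and all 3 for cGMP. Of 11 tested genes for adenylyl cyclases and G proteins, 8 rose and 1 fell by FDR, and Adcy1, Adcy2, Adcy3, Adcy9 and Gnai1 were called higher in βTC6. Among the 7 of them that passed the filter in both lines 4 rose and 1 fell, where 34.2% and 37.2% of all such genes did. Adcy1, a calcium-stimulated cyclase, went from at most 0.02 FPKM to 10.9 to 15.1. Of 9 PKA subunits and inhibitors, 4 rose and 1 fell, and 3 regulatory subunits that anchoring proteins can bind, Prkar1a, Prkar1b and Prkar2b, were called higher. Of the 8 that passed the filter in both lines, 3 rose and 1 fell. The gene that fell was the remaining regulatory subunit, Prkar2a, at 34.0 to 35.7 FPKM in αTC1 and 15.4 to 18.4 in βTC6 (log2 FC -0.96, adjusted p = 7.25e-06). Prkar1a had 1 count in all αTC1 libraries together and 434.6 to 584 FPKM in βTC6, and its 5 peaks stood at 1 read, the lowest value of the table, in every αTC1 library. Prkar2b stood at 2.90 to 4.42 and 13.6 to 14.8 FPKM, and Prkar1b at 9.01 to 12.7 and 59.4 to 68.7.

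Among cGMP synthesis and kinase genes, 5 were tested and 4 rose, with Gucy2c, Npr1 and Npr2 called higher and Gucy2c at 0.87 to 1.52 FPKM in αTC1 and 30.8 to 51.2 in βTC6. Of the 5, 4 passed the filter through βTC6 alone, 3 of which rose, and the 1 that passed in both lines also rose. Of 14 CREB target genes, 5 rose and 4 fell, shares near those of all tested genes, with Sst, Fos, Fosb and Egr1 called higher and Ppargc1a and Irs2 called lower. The FPKM values of Fos and Fosb overlapped between the lines, with βTC6 replicate 2 at 18.3 and 1.52. Of 11 CREB family genes and cofactors, 4 rose and 5 fell, which were also near them, and Sik1, a kinase that restrains CREB coactivators, was called lower. Of 10 Epac effectors, 5 rose and 2 fell, and Rap1gap was called higher. Of 9 phosphodiesterase partners, 4 rose, 1 fell and none passed the fold threshold in the edgeR fit.

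Accessibility near the members was compared next. Peak values are reads in each peak that the authors scaled between libraries, and were tested with limma on log2(normalized reads + 1) over all 65053 peaks, a scale on which the change of weak peaks is understated. Of the 214 member peaks, 19 were called higher in βTC6 and 14 lower at the same thresholds, where 12.9% and 5.38% of all peaks were. By FDR alone 72 were higher and 91 lower, where 39.9% and 38.1% of all peaks were. The split of calls moved with the scaling, to 14 higher and 21 lower after quantile normalization and to 24 and 8 after each chromosome's median was set to 0. Phosphodiesterase genes held 11 of the higher and 10 of the lower peaks, anchoring protein genes 7 and 2, Rapgef4 1 and 0, and Creb1 0 and 2.

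**Figure D3:**
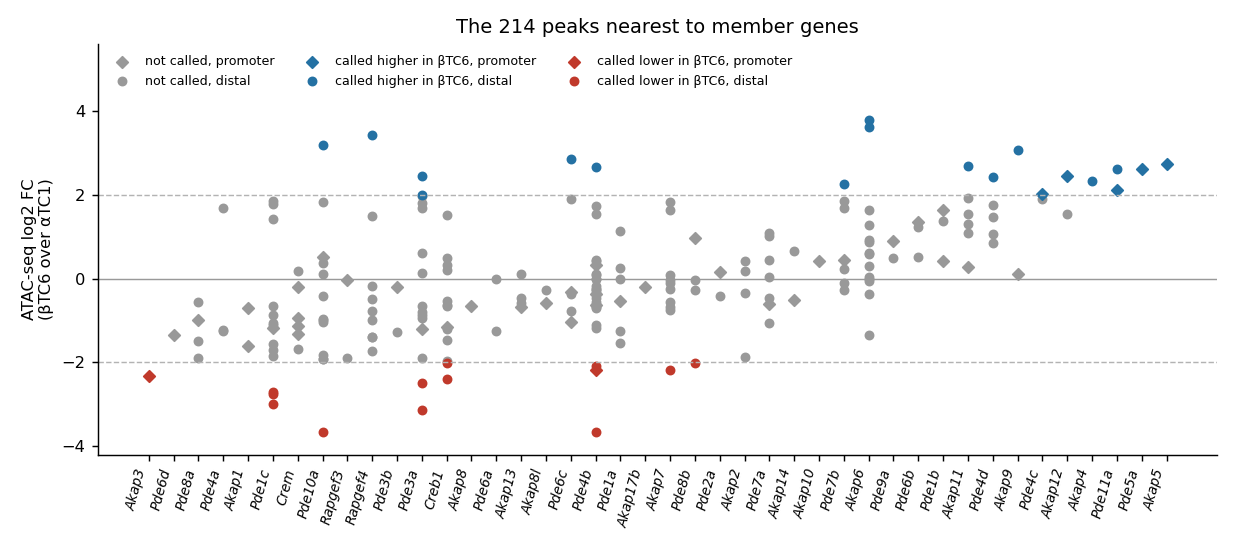
ATAC-seq log2 fold change, βTC6 over αTC1 (y axis), of each of the 214 peaks nearest to a member gene, with genes ordered by their median (x axis). Diamonds are promoter peaks, circles are distal peaks, colours mark peaks called at FDR below 5% and beyond the dashed lines at 2 and -2. Pde10a, Pde3a and Pde4b each hold peaks called in both directions.

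Within 2 kb of a start site lay 43 member peaks, of which 5 were called higher and 2 lower, where 5.51% and 1.41% of all such peaks were. The other 171 lay farther away, and 14 of them were called higher and 12 lower, where 15.1% and 6.53% of all such peaks were. Distances run to the nearest annotated start, which can be internal to the gene and differ between its peaks. By their centres 125 peaks were intronic, 61 intergenic, 21 in untranslated regions and 7 in other exons of the mm9 GENCODE annotation. In replicates 1 to 3 alone 20 member peaks were called higher and 13 lower, and in replicates 4 and 5 alone 24 and 17, sets for which the study calculated a quality measure differently.

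The 3 most different peaks in each direction lay near Akap6, Rapgef4, Pde10a, Pde4b and Pde3a, and the central 200 bases of each are shown so that the elements can be looked up, followed by those of the Akap12 and Pde5a promoter peaks. Sequences are from the plus strand of mm9, and capitals mark the E-box CAGCTG and the core of the cAMP response element, TGACG, on either strand. Windows without capitals held none of the motifs searched.
Akap6 intron, chr12:53955782-53955981: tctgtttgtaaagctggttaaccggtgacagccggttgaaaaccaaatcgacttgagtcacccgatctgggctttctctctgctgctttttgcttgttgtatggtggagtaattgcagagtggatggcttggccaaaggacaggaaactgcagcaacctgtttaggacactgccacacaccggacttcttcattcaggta
Akap6 upstream, chr12:53772506-53772705: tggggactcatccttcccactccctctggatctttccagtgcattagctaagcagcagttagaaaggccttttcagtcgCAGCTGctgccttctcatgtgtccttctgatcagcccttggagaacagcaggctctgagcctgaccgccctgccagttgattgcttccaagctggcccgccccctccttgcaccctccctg
Rapgef4 intron, chr2:71930238-71930437: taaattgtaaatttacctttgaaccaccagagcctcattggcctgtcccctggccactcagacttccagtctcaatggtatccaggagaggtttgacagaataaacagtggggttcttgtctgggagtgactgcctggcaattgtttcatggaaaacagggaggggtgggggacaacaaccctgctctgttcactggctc
Pde10a intron, chr17:9055566-9055765: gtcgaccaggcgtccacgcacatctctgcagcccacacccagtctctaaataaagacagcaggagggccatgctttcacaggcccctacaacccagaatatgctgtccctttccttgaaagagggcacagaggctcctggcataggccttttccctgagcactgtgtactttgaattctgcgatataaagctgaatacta
Pde4b intron, chr4:102246952-102247151: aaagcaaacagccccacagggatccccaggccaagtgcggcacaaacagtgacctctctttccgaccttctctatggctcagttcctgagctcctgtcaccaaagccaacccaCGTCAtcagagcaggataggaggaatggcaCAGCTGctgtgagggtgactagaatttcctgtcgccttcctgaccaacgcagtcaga
Pde3a upstream, chr6:141195098-141195297: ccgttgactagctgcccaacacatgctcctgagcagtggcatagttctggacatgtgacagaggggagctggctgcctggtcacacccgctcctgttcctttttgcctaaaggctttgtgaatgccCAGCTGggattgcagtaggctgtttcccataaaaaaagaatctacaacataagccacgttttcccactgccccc
Akap12 promoter, chr10:6079997-6080196: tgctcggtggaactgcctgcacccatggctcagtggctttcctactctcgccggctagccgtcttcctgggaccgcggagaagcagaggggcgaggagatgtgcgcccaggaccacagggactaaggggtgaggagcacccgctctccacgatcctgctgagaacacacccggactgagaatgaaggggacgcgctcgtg
Pde5a promoter, chr3:122432630-122432829: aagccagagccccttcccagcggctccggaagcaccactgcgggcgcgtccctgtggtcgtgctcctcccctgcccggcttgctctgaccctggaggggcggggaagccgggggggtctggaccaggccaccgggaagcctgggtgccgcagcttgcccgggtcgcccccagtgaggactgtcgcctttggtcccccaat

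In windows of the same length, TGACG was found in 29 of 214 member peaks and 12% of all peaks, and the full palindromic element TGACGTCA in 2 member peaks and 0.761% of all peaks. CAGCTG lay in 46 member peaks and 17.2% of all peaks. The forkhead core TGTTTAC was in 10 member peaks and 6.31% of all peaks, the homeodomain site TAATTA in 14 and 6.93%, and the Maf core TGCTGAC in 13 and 4.86%. Both strands were searched, matches of TGACGTCA also count as TGACG, and a match describes letters only. RefSeq promoters (GRCm38.p6, 300 bases around the start) were given for 33 member genes, and none of their 59 promoters held TGACGTCA, which 1.79% of 32851 promoters did.

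On the log2(normalized reads + 1) scale, the largest opening in βTC6 lay in an intron of Akap6. By edgeR on the recovered reads its log2 FC was 4.35, below the 4.56 of the upstream Akap6 peak. The intronic peak at chr12:53955273-53956490, 155.5 kb from the start site, had 2.1, 2.11, 1.35, 1.23 and 2.31 normalized reads in αTC1 and 36.1, 39.8, 32.0, 38.1 and 40.7 in βTC6 (log2 FC 3.78, SE 0.16, adjusted p = 1.44e-13). A further Akap6 peak at chr12:53772374-53772836, at -27.8 kb from the start, had 0.144 to 1.4 in αTC1 and 16.8 to 31.4 in βTC6 (log2 FC 3.62, SE 0.24, adjusted p = 4.70e-11). Akap6 had 14 peaks in all, 8 of them higher and 1 lower by FDR, beside an RNA level near 1 FPKM.

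Rapgef4 combined lower RNA with a more accessible intron in βTC6. Its peak at chr2:71929881-71930793 had 2.38, 1.69, 1.5, 2.05 and 2.89 normalized reads in αTC1 and 33.4, 36.7, 31.5, 40.2 and 21.5 in βTC6 (log2 FC 3.43, SE 0.19, adjusted p = 3.03e-12). Of its 9 peaks, 2 were higher and 5 lower by FDR.

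Pde10a, Pde3a and Pde4b each held peaks called in opposite directions. In the Pde10a gene, the peak at chr17:9055352-9055979 had 26.6, 23.5, 26.5, 27.6 and 34.7 normalized reads in αTC1 and 0.994, 1.85, 1.35, 1.14 and 1.13 in βTC6 (log2 FC -3.65, SE 0.18, adjusted p = 8.38e-13). A further intronic peak, at -80.4 kb from the same start site and chr17:8913781-8914604, had a mean of 1.76 in αTC1 and 23.3 in βTC6 (log2 FC 3.19). That start site is internal, since the gene begins at 8718237. The peak nearest it, at chr17:8993465-8995269, was higher in βTC6, with 50.3 ± 8.18 (SD, n = 5) against 34.7 ± 3.98 (log2 FC 0.51, SE 0.12, adjusted p = 4.22e-04). The RNA values do not tell the start sites apart.

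The Pde4b peak at chr4:102246780-102247323, intronic and 4.39 kb from a start site, had 26.3, 27, 25.5, 31.9 and 27 normalized reads in αTC1 and 0.994, 1.03, 2.16, 1.57 and 0.845 in βTC6 (log2 FC -3.65, SE 0.19, adjusted p = 1.58e-12). The groups lay far apart, whereas the RNA of the gene differed by a log2 FC of -0.53. Pde4b has several start sites and held 26 member peaks, of which 4 were higher and 13 lower by FDR. A peak 0.104 kb from another of its start sites, at chr4:101927181-101928115, went from 15.3 to 2.74 on average (log2 FC -2.18), and an intronic peak at chr4:102124031-102124456 went from 0.838 to 10.1 (log2 FC 2.68).

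Near Pde3a the peak at chr6:141195045-141195350, at -2.59 kb from the start site, had 20.9, 13.8, 16.4, 18 and 22 normalized reads in αTC1 and 0.568, 1.23, 1.49, 1.28 and 1.31 in βTC6 (log2 FC -3.14, SE 0.21, adjusted p = 4.83e-11). The peak over its start, at chr6:141197836-141199046, changed less, from 58.4 ± 7.89 (SD, n = 5) to 24.9 ± 3.26 (log2 FC -1.2, SE 0.11, adjusted p = 6.72e-09). It stayed readable in βTC6, where the RNA was at most 0.54 FPKM. Pde3a had 15 peaks, of which 6 were higher and 8 lower by FDR. The 2 called higher, at chr6:140899034-140899389 and chr6:140910521-140912083, had log2 FC of 2.45 and 2.00.

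Pde1c and Pde4b held the most peaks called lower in βTC6. The Pde1c intronic peaks 26.2 and 10.2 kb from an internal start site were lower in βTC6 with log2 FC of -2.99 and -2.74, and so was one 2.37 kb from the 5′ end of the gene, at -2.70. The first, at chr6:56285833-56286601, had 54.3, 61.0, 67.9, 64.3 and 65.3 normalized reads in αTC1 and 8.38, 6.36, 9.32, 5.99 and 5.54 in βTC6. The peak over the internal start, at chr6:56311732-56313128, changed from 97.7 ± 8.38 (SD, n = 5) to 42.6 ± 5.03 (log2 FC -1.18, SE 0.09, adjusted p = 8.06e-10).

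Pde1c, Pde3a and Akap3 lie on chromosome 6, where the median log2 FC was -0.79 over all peaks and -0.76 over the RNA of 579 genes. Relative to that median the 3 called Pde1c peaks stood at -2.20, -1.95 and -1.91, the latter pair inside the fold threshold. The Pde3a peak at -2.59 kb stood at -2.35. The other Pde3a peak called lower, at -207.2 kb, stood at -1.71, inside that threshold. The RNA stood at -1.43 for Pde1c, -5.64 for Pde3a and -1.73 for Akap3. With each chromosome centred, 24 of the 33 called member peaks kept their call, and of the 7 lower peaks that lost it 4 lay on chromosome 6 and 2 on chromosome 1. The part of the chromosomes was not tested.

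At several promoters, accessibility and RNA moved the same way. The Akap12 promoter peak at chr10:6079262-6080930, in the 5′ untranslated region, had 7.0, 8.15, 4.96, 5.05 and 4.33 normalized reads in αTC1 and 34.4, 35.7, 34.9, 30.0 and 46.1 in βTC6 (log2 FC 2.45, SE 0.16, adjusted p = 3.70e-11). The Pde5a promoter peak at chr3:122431644-122433814 had 11.3, 12.6, 9.62, 8.46 and 5.78 in αTC1 and 62.1, 55.2, 53.9, 60.5 and 81.1 in βTC6 (log2 FC 2.61, SE 0.16, adjusted p = 1.59e-11). The Akap3 promoter peak at chr6:126802782-126803509 went from 22.2 ± 3.28 (SD, n = 5) to 3.71 ± 1.04 (log2 FC -2.32, SE 0.18, adjusted p = 4.44e-10), and stood at -1.53 relative to its chromosome, inside the fold threshold.

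The Pde4c promoter peak at chr8:73247266-73247821 rose from 2.07 ± 1.25 (SD, n = 5) to 10.7 ± 1.70 (log2 FC 2.01, SE 0.26, adjusted p = 5.24e-07). It stood at the edge of the fold threshold and fell under it, to 1.84 at the lowest, when αTC1 replicate 3, 4 or 5 or βTC6 replicate 1, 3 or 5 was left out. The Pde1b promoter peak had a log2 FC of 1.63 (SE 0.23, adjusted p = 1.68e-06) and that of Pde9a 0.89 (SE 0.23, adjusted p = 0.00137), which missed the FDR, at 0.38, after quantile normalization. Promoter peaks of Pde8a and Crem were lower in βTC6, with log2 FC of -1.0 and -0.95.

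At some other promoters the RNA log2 FC was much larger in size than that of the peak, on scales that differ in how they treat low values. The Pde1a promoter peak went from 32.4 ± 3.41 (SD, n = 5) to 22 ± 2.51 (log2 FC -0.54, SE 0.11, adjusted p = 1.30e-04), beside the near loss of its RNA. The Pde2a promoter peak had 12.9 ± 2.1 and 14.5 ± 0.605 normalized reads (log2 FC 0.17, SE 0.13, adjusted p = 0.244), beside an RNA log2 FC of 3.09. For Pde6c the promoter peak nearest the start had a log2 FC of -0.32 (SE 0.12, adjusted p = 0.0195) that missed the FDR, at -0.27 and -0.25, without βTC6 replicate 2 or 4. Another, 1.46 kb from the start, went from 39.1 ± 2.12 to 18.9 ± 3.82 (log2 FC -1.04, SE 0.13, adjusted p = 2.65e-07), and an intronic peak 39.7 kb into the gene was higher in βTC6 (log2 FC 2.85, SE 0.24, adjusted p = 1.44e-09), the line with less Pde6c RNA. The Pde3b promoter peak had a log2 FC of -0.21 (SE 0.15, adjusted p = 0.218). It passed the FDR, at -0.34, without αTC1 replicate 5 and turned sign under quantile normalization and under chromosome centring.

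Pde4d had 5 peaks, all of them higher in βTC6 by FDR with log2 FC from 0.86 to 2.43, whereas its RNA was lower there. The nearest by the deposited distance, 69.1 kb from an internal start, was at chr13:109513189-109513677 and had 0.989 ± 0.354 (SD, n = 5) and 3.38 ± 1.63 normalized reads. The called peak was at chr13:109768742-109769454, with 1.03 ± 0.273 and 9.91 ± 1.44. After quantile normalization the former missed the FDR and the latter fell just under the fold threshold. Akap11 likewise had all 6 of its peaks higher by FDR, with log2 FC from 0.28 at its promoter to 2.70 at chr14:78858629-78859351, against a chromosome 14 median of 1.54, relative to which its promoter peak stood at -1.26 and the other at 1.16, no longer called.

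Of the 11 members below the expression filter, Akap4, Akap5, Pde7b, Pde8b and Pde11a had called peaks, and these are named here after their values were seen. The Akap5 promoter peak at chr12:77425417-77426410 had 1.01 to 3.93 normalized reads in αTC1 and 14.7 to 23.0 in βTC6 (log2 FC 2.73), beside an RNA level below 1 FPKM in both lines. Both Pde11a peaks were called higher in βTC6, with log2 FC of 2.11 and 2.61, as were distal peaks of Akap4 (2.33), which had no RNA counts, and Pde7b (2.25). An intronic Pde8b peak went the other way, at -2.0, beside RNA that was higher in βTC6 in the fit without the expression filter (log2 FC 1.87, adjusted p = 1.90e-04). Neither Pde6a peak was higher in βTC6, at log2 FC of -1.24 and -0.02, although its RNA was read almost only there.

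For 27 genes with a tested transcript and a peak within 2 kb of the start, the promoter log2 FC and the RNA log2 FC had the same sign in 24, where 65.5% of 9515 genes did. Pde10a, Akap13 and Akap8l were the exceptions. Akap12, Akap3, Pde1a, Pde1b, Pde2a, Pde3a, Pde4c, Pde5a, Pde6c and Pde9a passed the expression filter in 1 line only, and all were among the 24. Over all tested genes 1772 of 12195 passed in that way, which selects for a difference, so the 65.5% is not a like comparison. With the peak taken relative to its chromosome median the count was 21, as Akap11, Akap9 and Pde3b turned. The peaks of Pde10a, Pde1c, Pde2a and Pde4b lay over internal starts, more than 2 kb from the 5′ end of the gene. Across these genes Pearson's r was 0.76 and Spearman's rank correlation 0.661. The largest RNA changes behind these values came from the genes that passed the filter in 1 line only. No correlation over all genes is set beside them. This is a description across genes, which share libraries and chromosomes and are not independent replicates.

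**Figure D4:**
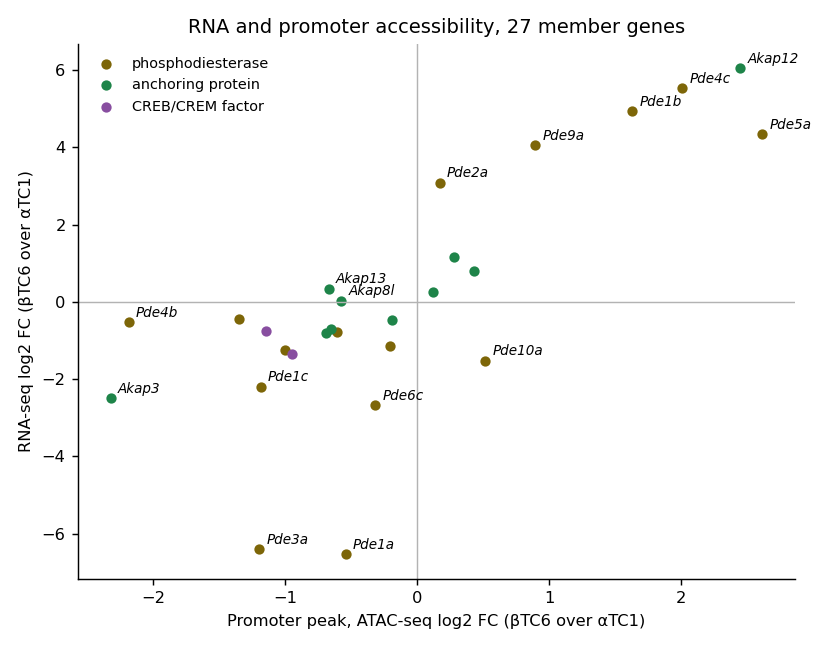
RNA-seq log2 fold change (y axis) against the log2 fold change of the promoter peak (x axis), both βTC6 over αTC1, for 27 member genes coloured by family. Akap12, Pde4c and Pde5a lie high in both, Pde3a and Pde1a combine RNA log2 fold changes of -6.39 and -6.54 with promoter changes of -1.2 and -0.54, and Pde10a lies in the opposite quadrant.

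The mixtures gave a further reading of the same peaks in libraries that the comparison of pure lines did not use. A slope of log2(normalized reads + 1) on the βTC6 fraction from 0 to 1 was fitted with limma over the 9 mixtures. Of the 214 member peaks, 61 rose and 51 fell with the βTC6 percentage at FDR below 5%, where 33.5% and 24.8% of all peaks did. All 19 peaks called higher in βTC6 rose, with slopes from 1.22 to 3.90, and 13 of the 14 called lower fell. The exception was a Pde4b peak at -42.4 kb from a start site, with a slope of -0.99 (adjusted p = 0.115). None of the 108 member peaks past the FDR in both fits went in opposite directions. The mixtures pool the same lines, so peaks that differ between the pure lines largely have to follow the fraction. This match is therefore no separate evidence about the members, and no share over all called peaks is set beside it.

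The intronic Akap6 peak followed the mixing proportions closely, from 3.25 normalized reads at 10% βTC6 cells through 19.7 at 50% to 37.8 at 90%, with a slope of 3.78 (SE 0.31, adjusted p = 6.80e-08). Not every peak lay on the line between the pure lines. The Rapgef4 peak was below it in all 9 mixtures and reached 16.3 at 90% βTC6 cells, under the lowest pure βTC6 library at 21.5, and the upstream Akap6 peak was above it in all 9, with 32.0 at 90%. The Pde4b peak in αTC1-rich mixtures was also low, with 17.5 at 10% βTC6 cells against at least 25.5 in pure αTC1. These departures were not tested, since each mixture was a lone library.

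**Figure D5:**
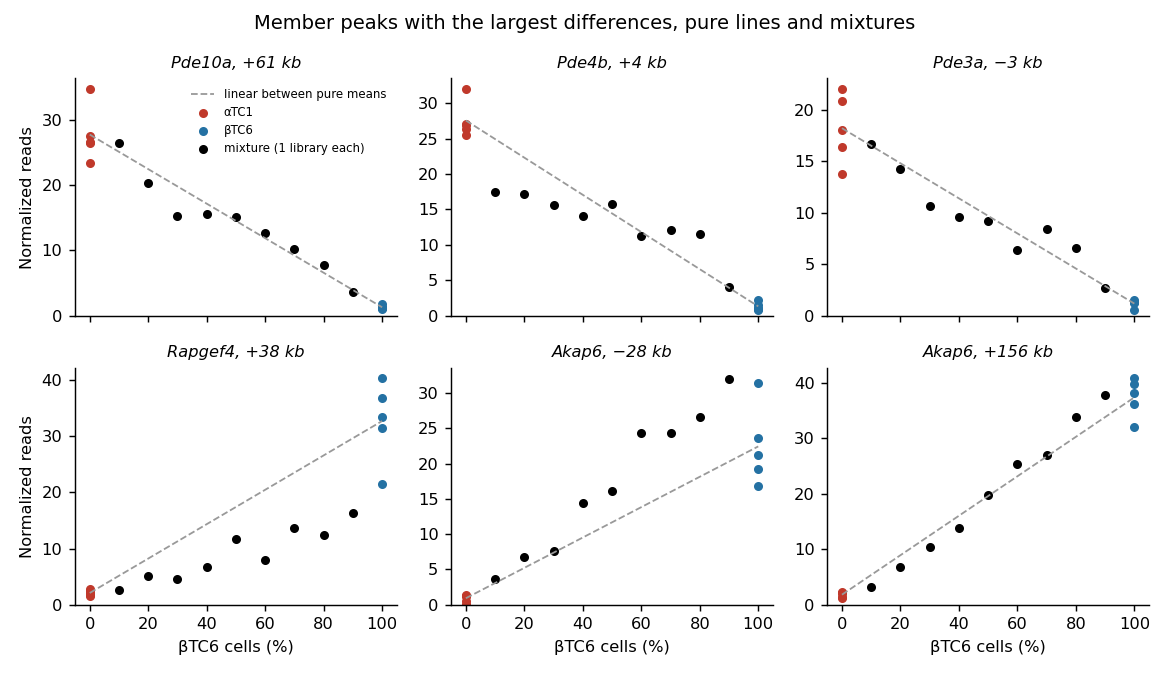
Normalized reads (y axis) against the percentage of βTC6 cells (x axis) for the 3 member peaks with the largest differences in each direction. Red and blue points are the 5 pure αTC1 and 5 pure βTC6 libraries, black points are the mixtures, and the dashed line joins the pure means. The Rapgef4 mixtures lie below the line and those of the upstream Akap6 peak lie above it.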

How the data were processed

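ATAC-seq reads were trimmed with Trimmomatic 0.32 and aligned to mm9 with BWA 0.7.9a, duplicates were removed with Picard 1.95, and peaks were called with MACS2 2.1.0, per the study's methods. The authors counted reads in the peaks found in at least 2 samples with DiffBind 2.2.5, scaled them by TMM and deposited them as a normalized signal per peak. Every one of these values was a whole multiple of a library's smallest step (tolerance 0.01), so reads could be recovered. HOMER 4.6 gave the nearest gene. RNA-seq reads were trimmed with Trim Galore 0.40 and, per the study's methods, aligned to mm9 with Bowtie 2. The authors deposited expected counts per gene from RSEM 1.2.12 with Ensembl transcript annotations, and FPKM values from the same quantification. The expected counts were rounded to whole numbers here. RSEM ran with default parameters, which do not use strand, on a stranded library, so overlapping antisense genes cannot be told apart. The deposited distance to the start site defined promoter peaks, and columns holding the authors' own peak classes were not used.

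Genes with at least 1 FPKM in all replicates of either line were tested with edgeR 4.0.16 (quasi-likelihood, TMM, 92 spike-in rows left out), and peaks with limma 3.58.1 (trend) on log2(normalized reads + 1), over the whole table with Benjamini-Hochberg adjustment. Only the pure libraries entered the comparison of the lines. The scripts were tested on simulated data. Values were named for members called or with FDR below 5% and a log2 fold change over 1 in size, for the peak nearest the start of each, its called peak with the largest change, and the 3 largest changes in each direction, and exceptions are marked. The members and lists were chosen with earlier results of these data known. Gene and peak positions are mm9, from GENCODE vM1 and the deposited peaks. Alternatives covered scaling, including spike-in library sizes in place of the authors' spike-in correction, pseudocounts of 0.5 and 5, filters, DESeq2 1.42.0, the fold threshold, a replicate block, processing sets, chromosome centring and leaving out each library. Intervals and floors cover counting error only.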

Additional observations from a re-analysis of the deposited data

Results flagged for a closer look

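The samples of each line were checked for a library far from the others at the 27 named peaks, which made 54 groups of 5 libraries. Dixon's test at the 95% level, which flags about 1 in 20 groups by chance, marked 2. At the Pde3a peak upstream of the start site, βTC6 replicate 1 stood at 0.568 normalized reads, below the other βTC6 libraries, which lay between 1.23 and 1.49. At the intronic Pde4b peak 4.39 kb from a start site, αTC1 replicate 4 stood at 31.9 normalized reads, above the other αTC1 libraries, which lay between 25.5 and 27.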

How the results depend on the processing

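The counts of called members moved with the scale more than with the libraries. For member genes, limma on log2(FPKM + 1) called 1 higher and 2 lower in βTC6, a scale that shrinks low genes by its construction, and dropping the FPKM filter gave 10 higher. A log2 fold threshold of 1 gave 10 lower genes, 54 higher peaks and 53 lower peaks. For member peaks, a pseudocount of 0.5 called 31 higher, a pseudocount of 5 called 6 higher and 5 lower, edgeR on the recovered reads called 39 and 25, and chromosome centring left 8 lower. In the mixtures, leaving out the 10% and 90% αTC1 libraries left 30 falling peaks, with fewer samples. Leaving out each library gave 6 to 7 higher and 5 lower genes, and 17 to 21 higher and 13 to 18 lower peaks. Over all features, 1743 genes and 11911 peaks were called, against 3530 genes without the FPKM filter, 979 with limma on FPKM, 3848 genes and 31848 peaks at a log2 fold threshold of 1, 2487 peaks with a pseudocount of 5 and 19533 with edgeR on reads. Quantile normalization put the median of all peaks at -0.07 and lowered the share of called member peaks that were higher in βTC6 from 57.6% to 40%, and chromosome centring raised it to 75%, while the same share over all peaks went from 70.6% to 52.5% and 73.1%.

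Akap8l turned sign at -0.023 with spike-in library sizes, -0.020 without the FPKM filter and -0.019 with limma on FPKM, and lay between -0.052 and 0.20 when each library was left out. The Akap11 promoter peak turned to -1.26 under chromosome centring, and the Pde3b promoter peak to 0.10 under quantile normalization and 0.36 under chromosome centring. The cause was not tested. Over all alternatives, 347 RNA and 506 ATAC values of single genes and peaks kept their direction and their side of the threshold, and 31 and 27 fell below it.

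Replicate numbers did not pair the samples, since same-numbered libraries of the lines had correlations of deviations from -0.034 to 0.018 in RNA-seq and -0.002 to 0.069 in ATAC-seq. With the replicate block, 6 and 5 genes and 19 and 14 peaks were called, and Akap13 was the named value that missed its threshold. Depth limits members below 1 FPKM, whose folds rest on few counts.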
